A study of Homo sapiens with 6 samples.

Results

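FGF2, FGF5 and FGF18, 3 genes of the fibroblast growth factor family, were followed in HaCaT keratinocytes, a human skin cell line that grows without limit. The control group was left untreated and the other group was kept with M1 protein at 5 µg/ml for 6 h. All cells had been grown in serum-free medium without calcium. M1 protein coats the surface of Streptococcus pyogenes and helps it to cause disease. Affymetrix ST arrays measured 3 control and 3 M1 samples, which the study had selected out of 12 by RNA quality. The titles call the samples biological replicates of a single cell line, and no source used here says whether they were grown on separate days. Every error below therefore comes from the spread between these samples, which for some errors was adjusted as described under the processing.

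The 3 genes were taken by their symbols from the authors' deposited table of 497 probe sets, which holds 495 genes, out of 22119 probe sets measured. A probe set is a group of array probes read as 1 value. Each gene had 1 probe set. The authors had listed these probe sets because they differed between control and M1 samples, so the direction and size of the FGF differences were part of how the genes were found. They are given as a description, with no test of their own, and the authors' scores and p-values are given only to show what chose the genes. In the authors' deposited table the SAM score, a group difference divided by its spread plus a constant, was 1.34 for FGF2, 1.08 for FGF5 and 1.30 for FGF18. The smallest positive score in the authors' deposited table was 1.03, so FGF5 lay closest to that limit. The p-values listed beside the scores in the authors' deposited table were 0.000439, 0.000319 and 0.000881 in the same order. The largest p listed in the authors' deposited table was 0.000999, close to that of FGF18. Probe sets just outside these limits carry no gene name here.

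Most fibroblast growth factors are signalling proteins that act on tyrosine kinase receptors (FGFR) with the help of heparan sulfate chains at the cell surface. The receptors pass the signal through the adaptor FRS2 to RAS and the kinases MEK and ERK, and ERK signalling switches on transcription factor genes as well as inhibitors that damp the pathway. In skin, FGF ligands take part in wound repair, hair growth and exchange between epidermis and dermis. FGF2, or basic FGF, drives growth of fibroblasts and blood vessels and leaves cells without a classical secretion signal. FGF5 is a secreted factor best known for ending the growth phase of the hair cycle. FGF18 is a secreted factor known from bone, cartilage and lung development and, in mice, from the resting hair follicle.

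FGF2 had log2 signals of 7.79, 7.99 and 8.01 in control replicates 1 to 3 and of 9.00, 8.83 and 9.02 in the M1 replicates. All 3 M1 arrays lay above all 3 control arrays, with 0.82 between the lowest M1 and the highest control value. The same held for 18.6% of all 22119 probe sets, and as the 3 genes came from a table chosen on this contrast, nothing is read from it. Control replicate 1 was the lowest of its group and M1 replicate 2 the lowest of the other. The mean log2 signal was 7.93 ± 0.12 (SD, n = 3) in control and 8.95 ± 0.11 (SD, n = 3) with M1 protein. The difference was 1.02 ± 0.09 (SE) on the log2 scale, or 2.03-fold. In the authors' table FGF2 spans bases 123747863 to 123819391 of chromosome 4, plus strand.

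FGF18 had log2 signals of 6.87, 6.98 and 6.70 in the control replicates and of 7.81, 7.76 and 7.96 in the M1 replicates. Again the groups did not overlap, with 0.78 between the closest values of the groups. Control replicate 3, which was the highest control array for FGF2, was the lowest for FGF18. The mean log2 signal was 6.85 ± 0.14 (SD, n = 3) in control and 7.85 ± 0.11 (SD, n = 3) with M1 protein. The difference was 1.00 ± 0.10 (SE) on the log2 scale, or 2.00-fold. In the authors' table FGF18 spans bases 170846660 to 170884630 of chromosome 5, plus strand.

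FGF5 had log2 signals of 8.50, 8.66 and 8.63 in the control replicates and of 9.36, 9.49 and 9.33 in the M1 replicates. The groups were 0.68 apart at their closest values. M1 replicate 2, the lowest M1 array for FGF2 and FGF18, was the highest for FGF5. The mean log2 signal was 8.60 ± 0.08 (SD, n = 3) in control and 9.39 ± 0.09 (SD, n = 3) with M1 protein. The difference was 0.80 ± 0.07 (SE) on the log2 scale, or 1.74-fold. In the authors' table FGF5 spans bases 81187742 to 81212171 of chromosome 4, plus strand, and ends 42535692 bases before FGF2. No source used here names the genome build of these positions. They differ from those of build GRCh38.p14, used for the promoter sequences below. In that build the genes start at 122826682 (FGF2), 80266588 (FGF5) and 171419647 (FGF18). Positions of the 2 sets should not be read together.

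**Figure D1:**
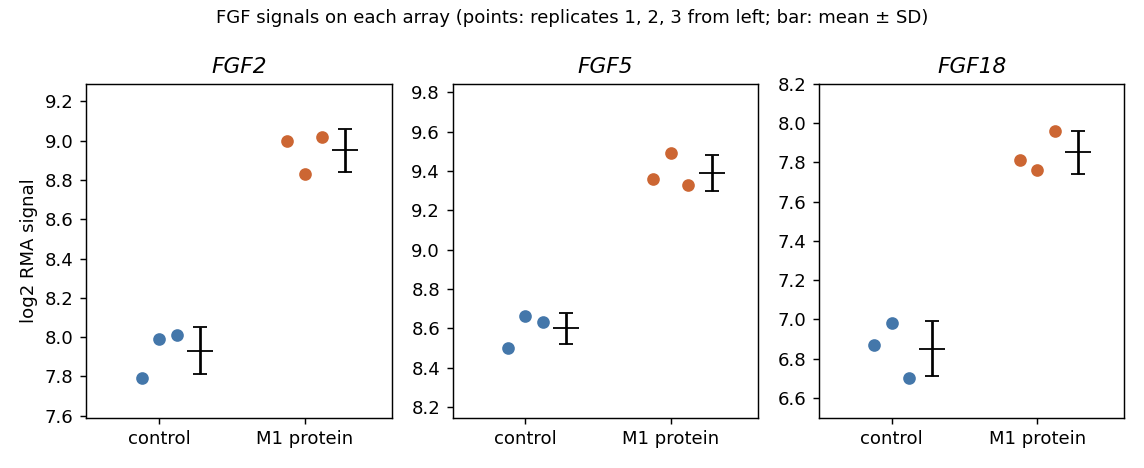
Log2 RMA signal of FGF2, FGF5 and FGF18 on each array. Points are replicates 1, 2 and 3 from left in each group, and the black bars give the mean ± SD. Each panel has its own range of the vertical axis, which does not start at 0, and spans the same number of log2 units. In each panel every M1 array lies above every control array.

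For each gene the gap between the groups was larger than the range within either group, by 3.7 times for FGF2, 2.8 times for FGF18 and 4.3 times for FGF5, taking the wider of the group ranges. The authors' choice of probe sets on this contrast favours wide gaps with small spread, so nothing is read from these values. Every control value of the 3 genes lay above the 25th percentile of its array, which was 5.71 to 5.79 over the arrays. Median signals were 6.99 to 7.01 on the control arrays and 6.93 to 6.96 on the M1 arrays. Each control value of FGF18 lay below the median of its array, and those of FGF2 and FGF5 lay above. Signals of different probe sets are not on a common scale, so the levels of the 3 genes were not ranked against each other.

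The sizes of the differences were set side by side by taking 1 gene minus the other on the same array. The log2 difference of FGF2 exceeded that of FGF5 by 0.23 ± 0.11 (SE). FGF18 exceeded FGF5 by a similar amount, with FGF5 minus FGF18 at -0.20 ± 0.14 (SE). FGF2 and FGF18 were 0.02 ± 0.13 (SE) apart, and the sign of this small difference changed when single replicates were left out (-0.06 to 0.14). These comparisons use the contrast that chose the genes and were not tested.

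Among all 22119 probe sets, the differences of FGF2, FGF18 and FGF5 ranked 316, 336 and 502 from the largest rise. Larger rises were seen in 1.42%, 1.51% and 2.27% of probe sets, and the median log2 difference of all probe sets was 0.0032. Within the 303 higher probe sets of the authors' table the same genes ranked 206, 213 and 275, below that group's median log2 difference of 1.27. As the authors' selection took probe sets with large differences, a high rank among all probe sets was fixed by that choice and nothing is read from it.

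**Figure D2:**
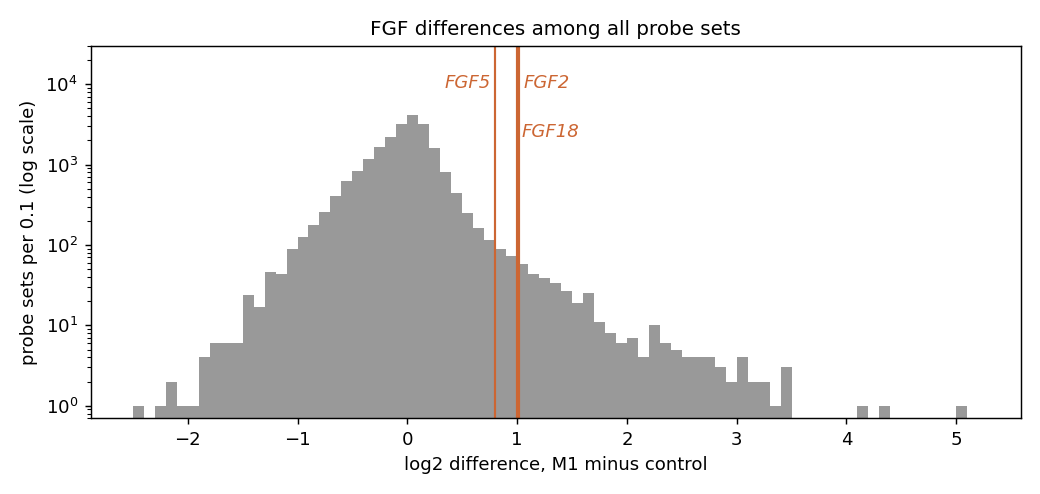
Number of probe sets (log axis) by log2 difference, M1 minus control, in steps of 0.1, over all 22119 probe sets. Vertical lines mark FGF5 at 0.80, FGF18 at 1.00 and FGF2 at 1.02, with 1.42% to 2.27% of probe sets to the right of them.

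The sequences before the starts of the 3 genes are shown, and whether they bear on the M1 differences was not tested. They come from the RefSeq promoter table of build GRCh38.p14, which held all 3 genes, on the plus strand, and end at the base before the first annotated base of the gene. Capitals mark matches, on either strand, to 4 motifs: GGGCGG, the GC box bound by SP factors; GCGNGGGCG, bound by EGR factors; TGANTCA, bound by AP-1; and the NF-kappaB consensus. FGF2 is shown for 101 bases at chr4:122826581-122826681, since the table's window then runs into an annotated transcript. FGF5 is shown for 250 bases at chr4:80266338-80266587, the first of 2 windows in the table, and FGF18 for 250 bases at chr5:171419397-171419646.
FGF2: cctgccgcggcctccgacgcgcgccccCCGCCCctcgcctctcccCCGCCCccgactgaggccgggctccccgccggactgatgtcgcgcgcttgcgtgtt
FGF5: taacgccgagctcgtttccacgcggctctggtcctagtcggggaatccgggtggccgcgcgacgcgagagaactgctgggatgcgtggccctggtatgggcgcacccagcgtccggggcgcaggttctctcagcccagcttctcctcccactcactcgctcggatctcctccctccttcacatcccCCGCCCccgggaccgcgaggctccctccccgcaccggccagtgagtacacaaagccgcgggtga
FGF18: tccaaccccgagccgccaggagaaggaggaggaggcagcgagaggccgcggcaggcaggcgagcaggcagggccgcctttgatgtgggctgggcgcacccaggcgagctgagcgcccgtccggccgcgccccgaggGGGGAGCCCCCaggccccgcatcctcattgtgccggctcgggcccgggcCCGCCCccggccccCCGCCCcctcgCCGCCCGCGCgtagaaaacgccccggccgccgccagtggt

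The GC box was the motif that all 3 sequences held, with 2 matches before FGF2, 1 before FGF5 and 3 before FGF18. It also occurs in 42.6% of the 35116 windows of 250 bases in the promoter table and in 17.5% of windows cut to the first 101 bases. All 3 sequences were rich in G and C, at 80.2% for FGF2, 68.8% for FGF5 and 78.8% for FGF18. The median was 58.0% over windows of 250 bases and 55.4% over those of 101. The cut kept the first bases of each window. These need not lie next to the gene start, as they do for FGF2. The FGF18 window alone held the NF-kappaB consensus, as 3 overlapping matches between 171419533 and 171419543 on chromosome 5. It also held the EGR motif, in a match from 171419608 to 171419616 that overlaps the last GC box. The NF-kappaB consensus occurs in 6.88% and the EGR motif in 8.41% of all windows of 250 bases. TGANTCA, found in 6.57% of such windows, had 0 matches in the 3 sequences. In windows cut to the first 101 bases, the length shown for FGF2, TGANTCA occurs in 2.46%. The NF-kappaB consensus occurs in 2.62% and the EGR motif in 2.27% of these shorter windows. A match is a run of letters and does not show that a factor binds.

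The other genes of the FGF pathway were taken from lists of its known parts. Gene names reached only the 497 probe sets of the authors' table, which are 2.25% of those measured, so a list gene without a named probe set has no value here. Of the 22 genes of the FGF family, 3 were in the table, the genes described above, and the other 19 had no value. Among these are FGF7 and FGF10, ligands made by dermal cells that act on the epithelial form of FGFR2. The table held 0 of 10 genes of FGF receptors, co-receptors and carriers, 0 of 25 genes of heparan sulfate carriers and enzymes, and 0 of 20 genes of receptor adaptors and the RAS to ERK cascade. It held 0 of 7 genes listed as overlapping or neighbouring the 3 FGF genes, NUDT6, the antisense partner of FGF2, among them. Whether transcripts of NUDT6 contribute to the FGF2 signal was not tested.

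Feedback inhibitors of FGF receptor signalling had 4 of 16 genes in the table, and all 4 rose, with a median log2 difference of 2.45. Of the 497 probe sets of the table, 303 were higher and 194 lower. The higher ones had a median log2 difference of 1.27. Over all probe sets, limma called 11.6% higher and 21.2% lower at an adjusted p of 0.05, 2555 and 4690 probe sets, and the median log2 difference was 0.0032. With each array centred on its own median the split was 3578 higher and 3670 lower. DUSP5, a phosphatase that inactivates ERK in the nucleus, had log2 signals of 8.55, 8.83 and 8.74 in control and of 11.58, 11.57 and 11.37 with M1 protein. Its difference was 2.80 ± 0.09 (SE, limma). DUSP4, another nuclear phosphatase of MAP kinases, rose by 2.68 ± 0.07 (SE), from 8.52 ± 0.11 to 11.21 ± 0.04 (SD, n = 3 each). SPRY2, an inhibitor of receptor signalling upstream of ERK, rose by 2.21 ± 0.08 (SE), from 8.25 ± 0.08 to 10.46 ± 0.11 (SD, n = 3 each). DUSP6, a cytoplasmic ERK phosphatase and a widely used readout of FGF signalling, rose least of the 4, by 1.57 ± 0.06 (SE).

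Transcription factor genes that act downstream of FGF and ERK had 8 of 17 members in the table, all of which rose, with a median log2 difference of 1.42. Most probe sets of the table rose (303, against 194 that fell), with a median of 1.27 among the 303. No list test was made. FOS, a subunit of AP-1, rose by 2.53 ± 0.11 (SE) and EGR1 by 2.27 ± 0.08 (SE). The ETS family member ETS1 rose by 1.66 ± 0.06 (SE), and ETS2 by 0.97 ± 0.05 (SE). IER2 (1.54 ± 0.06 SE), MYC (1.31 ± 0.06 SE) and JUNB (1.23 ± 0.05 SE) lay between, as did KLF10, which rose 2.14-fold. ETV1, ETV4 and ETV5, the ETS genes most used as readouts of FGF signalling, were not in the table and have no value here. These 12 inhibitor and transcription factor genes respond to many stimuli that reach ERK.

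Each of the 12 genes passed the limma test (largest adjusted p 4.12e-05, Benjamini-Hochberg over 22119 probe sets). So did all 497 named probe sets of the table, which the authors had chosen on the same arrays, so the passes say nothing particular about the 12 genes. Of the 12 pathway genes, 1 had a smaller difference than FGF2, namely ETS2.

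**Figure D3:**
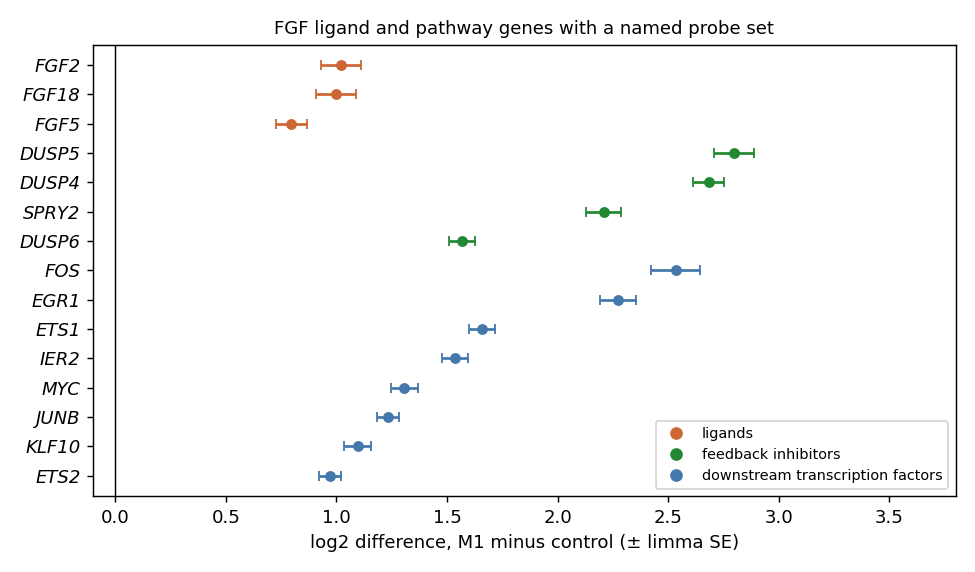
Log2 difference, M1 minus control, of the 15 FGF ligand and pathway genes that have a named probe set. Points are differences of 3 M1 and 3 control arrays, bars are ± SE from limma. The 3 ligands lie between 0.80 and 1.02, the feedback inhibitors between 1.57 and 2.80 and the transcription factor genes between 0.97 and 2.53.

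The annotation in the authors' table gave what the 3 genes share beside their name. All 3 carried the terms growth factor activity, extracellular region, extracellular space, positive regulation of cell proliferation, and fibroblast growth factor receptor signalling pathway. The last term had 1 further gene in the table, CCN2, which encodes a matrix-associated factor. FGF2 carried 46 biological process terms, against 13 for FGF18 and 7 for FGF5.

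Growth factor activity was carried by 17 genes of the table, and all 17 had higher signals with M1 protein. Of all 497 probe sets of the table, 303 were higher and 194 lower. This term was picked after the values had been seen, and the genes had been selected on the contrast, so the count carries no test. The 3 FGF genes stood near the lower end of the group: FGF2 was number 14, FGF18 number 15 and FGF5 number 17, with the neuregulin gene NRG1 between FGF18 and FGF5 at 0.97 ± 0.09 (SE). The median log2 difference of the 17 genes was 1.88. The EGF family ligand HBEGF reached 3.25 ± 0.07 (SE), BMP2 reached 2.72 ± 0.08 (SE) and VEGFA, the vascular growth factor, reached 1.88 ± 0.06 (SE). The difference nearest above FGF2 was that of TGFA, another EGF receptor ligand, at 1.39 ± 0.07 (SE).

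**Figure D4:**
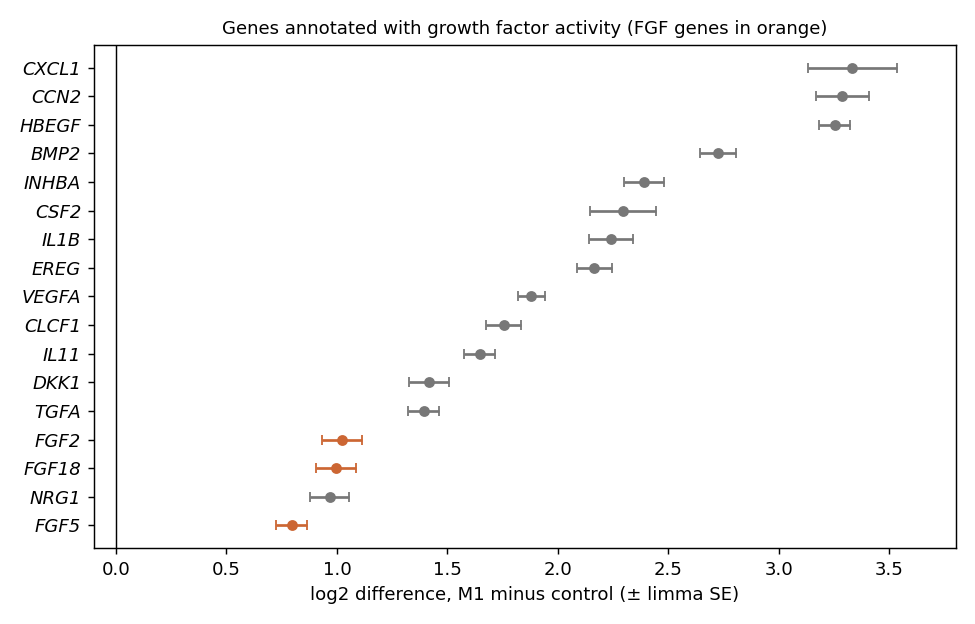
Log2 difference, M1 minus control, of the 17 genes annotated with growth factor activity in the authors' table, ordered by size. Points are differences of 3 M1 and 3 control arrays, bars are ± SE from limma, and the FGF genes are orange. FGF5 is the lowest at 0.80, and FGF2 and FGF18 lie just above NRG1.

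Genes with a like pattern were sought among the named genes. Each gene's log2 signals were taken minus its control mean, and likeness was the root mean square difference over the 6 arrays, in log2 units. Closest to FGF2 were HIVEP2 (0.0694), a zinc finger transcription factor gene, EFNB2 (0.0695), which encodes the membrane ligand ephrin-B2, and TET3 (0.0714), a DNA demethylation enzyme. The median distance from FGF2 was 0.713 over the other named genes. HIVEP2 had log2 signals of 10.43, 10.56 and 10.57 in control and of 11.53, 11.47 and 11.48 with M1 protein, so control replicate 1 was its lowest array too. That array was also the lowest for FGF5, DUSP5 and MYC, but not for FOS or BMP2. The highest M1 array was replicate 1 for HIVEP2 and replicate 3 for FGF2.

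FGF5 had the closest neighbours of the 3 genes: CAMSAP2, a microtubule-binding protein gene, at 0.0333, CCDC9 at 0.0471 and MICAL2, an actin-oxidising enzyme gene, at 0.0551. CAMSAP2 had log2 signals of 11.20, 11.30 and 11.33 in control and of 12.03, 12.11 and 11.98 with M1 protein, and shared with FGF5 its highest M1 array, replicate 2. For FGF18 the closest genes were PPIF, the mitochondrial cyclophilin gene, at 0.0794, CDR2 at 0.0890 and the endocytic sorting nexin gene SNX9 at 0.0992. These genes varied less than FGF18 within the groups, with SDs of 0.02 to 0.06 against 0.14 and 0.11. Their lowest array was control replicate 1, while that of FGF18 was control replicate 3. The FGF genes were not each other's nearest. FGF2 and FGF18 were 0.128 apart, FGF2 and FGF5 0.196, and FGF5 and FGF18 0.201. With profiles of so few arrays in 2 groups, likeness mostly measures how close the sizes of the differences are.

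**Figure D5:**
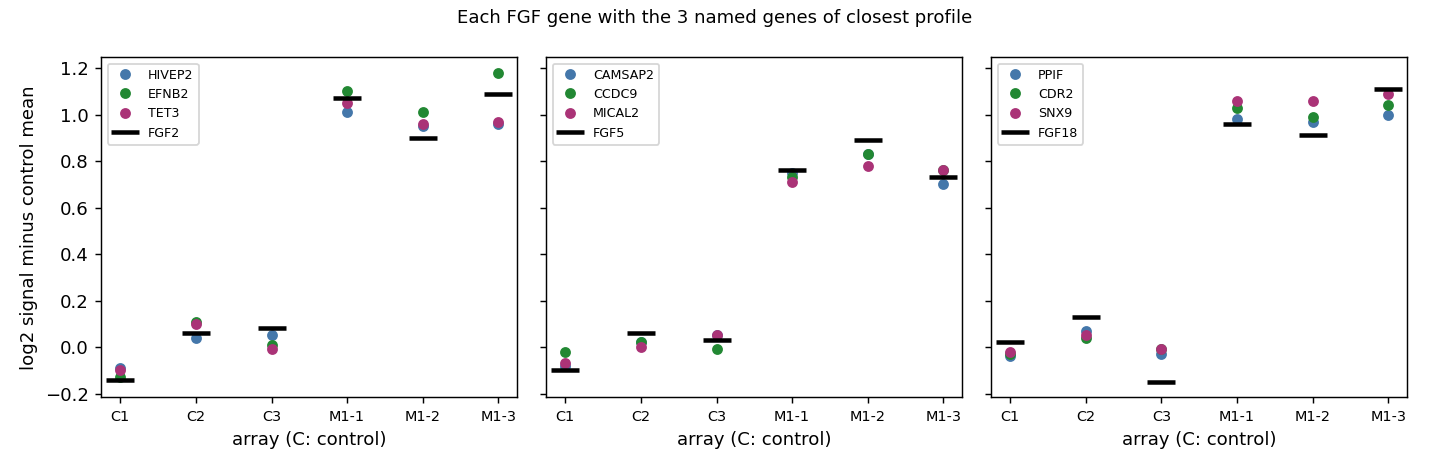
Log2 signal minus the gene's control mean on the 3 control (C1 to C3) and 3 M1 arrays, for each FGF gene (black bars) and the 3 named genes of closest profile (coloured points). The M1 values of FGF5 and its neighbours lie around its mean difference of 0.80, below those of the other panels.

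The labelled cell type could be checked only in part, because markers have a value here only where the authors selected them. Of 10 keratinocyte markers, LAMB3, a laminin chain of the epidermal basement membrane, was in the table and rose by 0.75 ± 0.06 (SE, limma), from 11.81 ± 0.05 to 12.56 ± 0.03 (SD, n = 3 each). None of 24 markers of fibroblasts, melanocytes, endothelium and leukocytes was in the table, so their levels are not known here. In RNA from a whole culture, more transcript per cell and more cells of a kind cannot be told apart.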

How the data were processed

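Total RNA of 6 HaCaT samples was measured on arrays. The deposited log2 signals came from RMA in Affymetrix Expression Console (version 1.1.2), as the submitters' processing notes list these tools. RMA corrects background, brings arrays to a common distribution and merges the probes of a set, and so tends to understate changes of dim probe sets. The authors' table also gives, per the file headers, a SAM score, a fold ratio of unlogged means, a q-value (0 for all 3 genes) and a t-test p-value with an alpha of 0.01. Its signals were identical to those of the value table. The fold ratios in the authors' table were 2.03, 1.74 and 1.99 for FGF2, FGF5 and FGF18.

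M1 and control samples were compared over all 22119 probe sets by limma 3.58.1 under R 4.3.3 (lmFit, eBayes), with no filter, two-sided, with Benjamini-Hochberg adjustment and a threshold of 0.05. The fit was also run on simulated data with independent noise and far fewer changed probe sets than were called here. That run therefore says nothing about the number of calls. Errors of the FGF differences are pooled 2-group standard errors, and those of other genes come from limma. Symbols were updated by accession against RefSeq (GRCh38.p14), where 476 of 497 matched. The genes and lists were chosen with earlier results of these data known. The text names the 3 FGF genes, every list gene with a named probe set, and the 3 closest named genes to each FGF gene. Growth factor genes were added from the annotation after their values were seen. The number of arrays limits the precision.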

Additional observations from a re-analysis of the deposited data

How the results depend on the processing

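The 3 FGF genes were higher with M1 protein in every setting run: quantile normalization, median centring, means of unlogged signals, the replicate block and each sample left out. Their choice by this contrast, with groups that do not overlap, fixed that direction in all settings but the normalizations. Of those, median centring could not have reversed it. Array medians ran from 6.93 to 7.01, while the groups lay at least 0.68 apart for each gene. Without each sample in turn the log2 difference was 0.95 to 1.08 for FGF2, 0.75 to 0.83 for FGF5 and 0.92 to 1.06 for FGF18. After quantile normalization FGF5 moved by more than its replicate SD, to 0.88, while FGF2 was 1.13 and FGF18 1.08. The differences between FGF genes stayed within their SD, at 0.16 to 0.34 for FGF2 minus FGF5, -0.06 to 0.14 for FGF2 minus FGF18 and -0.29 to -0.11 for FGF5 minus FGF18 without single samples.

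Over all probe sets 7245 were called, 5386 to 6763 without single samples, 2088 with a 1.5-fold limit and 497 among named probe sets alone, the last 2 fewer by construction. A replicate block in the fit left 5821 calls. Deviations of same-numbered samples correlated at -0.12, -0.12 and -0.0011, so the numbers were not taken as pairs. All 12 pathway genes were called higher under each of the settings for that count, a check added after the data were seen. They come from a table in which all 497 named probe sets were called, so this could hardly come out otherwise and says nothing about stability. The mean over several probe sets of a gene was not run, as each FGF gene has 1.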
